A study of Mus musculus with 45 samples.

Results

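Mammary gland tumors of 2 mouse models with few DNA copy number changes, MMTV-Wnt1 (5 tumors) and MMTV-Myc (5 tumors, given in the sample labels as MMTV-c-Myc), were compared by array comparative genomic hybridization (CGH). They are 10 of the 45 tumors in the series. The 2 models were taken for having the fewest changes of the series, and their tumors by the model named in the labels. Each tumor's genomic DNA was hybridized against a reference DNA on 1 Agilent 2-colour array of 43020 spots. The tumors were invasive mammary tumors dissected from female mice, and both models carry a transgene under the long terminal repeat of mouse mammary tumor virus (MMTV), which is active mainly in mammary epithelium. The reference was described in the labels as pooled spleen, with normal mammary gland in other fields of the same channel, and in the text of the study as spleen of the background strain. The strain and age of the mice, and whether each tumor came from a separate animal, were not given in the sources used here, so the p-values measure only the spread between these samples.

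Wnt1 is a secreted ligand that binds Frizzled receptors and the co-receptors Lrp5 and Lrp6, which leads to the accumulation of beta-catenin and to transcription through the Tcf and Lef factors. Myc is a transcription factor that pairs with Max at the promoters of genes for growth and cell division, and high Myc can also trigger apoptosis through p19ARF and p53. In both models the transgene alone is known to give tumors only after a latency, and changes of copy number, from whole chromosomes to narrow amplicons, are among the further events found in mammary tumors.

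Values are log2 ratios of Cy3 over Cy5 with Cy3 taken as the tumor, after the autosomal median of the array was set to 0. This goes against the labels, which give Cy5 to the tumor, and was a choice made with the values in view. The authors' own table lists 85 intervals of 3 or more probes for these 10 arrays whose mean was 0.2 or more in size, and 85 of 85 had the sign of Cy3 over Cy5. The Wnt1 probe, described below, was among the values in view. With the dyes as labelled every gain below is a loss. The mean of chromosome X was between 0.58 and 1.01 in all 10 tumors, and the sex of the reference mice was not stated. Circular binary segmentation cut each chromosome into stretches of at least 5 probes with one level, and a stretch with a mean of at least 0.2 was called gained and one of at most -0.2 lost. A ratio averages all cells of a sample, so that a small change in every cell and a larger change in some cells cannot be told apart.

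The arrays differed in quality and in handling. The SD of a single probe was 0.158 to 0.350 in MMTV-Wnt1 and 0.173 to 0.443 in MMTV-Myc arrays, and between 96.6 and 99.8% of the probes were well above background in both channels. No slide and no scan day held arrays of both models (8 slides and 5 days in all), so model and batch cannot be told apart. The dye normalization carried code 0 on all 5 MMTV-Myc arrays and on tumor Wnt_4635, and code 1 on the other 4 arrays labelled MMTV-Wnt1. Tumor Wnt_4635 went against its label at the transgene, as described below, and is written of as the tumor labelled MMTV-Wnt1 where a result rests on it.

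The first question was how much of the genome was altered in each model. In tumors labelled MMTV-Wnt1, 30.9% of 2057 autosomal bins of 1 Mb lay in an altered segment in Wnt_4635, 4.23% in Wnt_4676, 1.31% in Wnt_4679, 0.486% in Wnt_4675 and 0.0972% in Wnt_4677. In MMTV-Myc tumors the share was 0% in Myc_4An7, 0.389% in Myc_04004022, 0.583% in Myc_04005648, 1.36% in Myc_043508 and 7.44% in Myc_04004021. Each model thus had 1 tumor far above its other 4, and the 2 sets of low tumors overlapped. The means were 7.41 ± 13.2% in MMTV-Wnt1 and 1.95 ± 3.11% in MMTV-Myc (SD, n = 5 each), a difference of 5.45 percentage points that was smaller than the spread between tumors (two-sided exact permutation test over 252 assignments, p = 0.579, smallest possible p = 0.00794). Both models were taken for having few changes, which favoured a small difference beforehand. The tests of altered, gained and lost shares and of segment numbers therefore cannot show that the models are alike. Without Wnt_4635 the MMTV-Wnt1 mean was 1.53 ± 1.87% (SD, n = 4) which was 0.42 points below MMTV-Myc (a difference of -0.423, exact permutation test, p = 0.873). The medians of MMTV-Myc and MMTV-Wnt1, 0.583 and 1.31%, were the lowest of the 8 models, for which the pair had been chosen, but by the mean MMTV-PyMT (7.01%, n = 9) stood below MMTV-Wnt1, and the highest mean was that of p53-/- tumors (53.3%, n = 6).

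**Figure D1:**
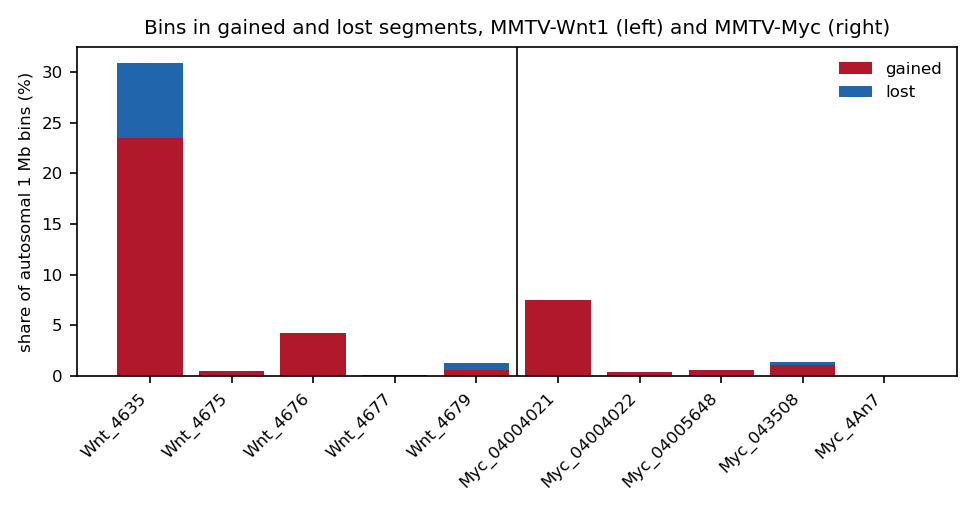
Share of the 2057 autosomal 1 Mb bins that lay in gained (red) and lost (blue) segments, in percent, 1 bar per tumor, with MMTV-Wnt1 on the left and MMTV-Myc on the right. Wnt_4635 reaches 30.9% and Myc_04004021 reaches 7.44%, and the other 8 tumors are at or below 4.23%.

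With Cy3 as the tumor, gains made up most of the altered genome in both models, and with the dyes as labelled the gained and lost values below change places. Gained bins were 23.4% in Wnt_4635 and at most 4.23% in the other 4 tumors of that label, and 7.44% in Myc_04004021 and at most 1.07% in the other MMTV-Myc tumors. The difference in gained share was 3.88 points (exact permutation test, p = 0.611) and turned to -0.537 points without Wnt_4635 (exact permutation test, p = 0.849). Losses reached 7.49% in Wnt_4635, 0.729% in Wnt_4679, 0.292% in Myc_043508 and 0.0486% in Myc_04005648, and the other 6 tumors had no lost bin. The difference in lost share was 1.58 points (exact permutation test, p = 0.444) and 0.114 points without Wnt_4635 (exact permutation test, p = 0.722). The long lost segments of Wnt_4635 lay close to the call, so that its lost share depends on the centring, as given below. With the 2036 bins outside chromosome 11 beyond 100 Mb alone, the altered share was 0% in Myc_04004022 and 0.0491% in Myc_04005648, so that nearly all altered bins of these 2 tumors lay on distal chromosome 11. The difference there was 5.72 points (exact permutation test, p = 0.476) and turned to -0.0246 points without Wnt_4635 (exact permutation test, p = 0.992).

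The number of altered segments gave another order of the tumors. It was 63, 53, 7, 11 and 50 in Wnt_4635, Wnt_4675, Wnt_4676, Wnt_4677 and Wnt_4679, and 8, 3, 47, 22 and 3 in Myc_04004021, Myc_04004022, Myc_04005648, Myc_043508 and Myc_4An7. The difference of 20.2 segments was within the spread (exact permutation test, p = 0.183). Most of these segments were short. Segments of fewer than 10 probes made up 44 of 53 in Wnt_4675, 44 of 50 in Wnt_4679 and 33 of 47 in Myc_04005648, whose array also had the most spots with a deposited ratio of exactly 0 (3.07%, at most 0.8% on the others). Altered autosomal segments of at least 20 probes numbered 24, 1, 4, 0 and 3 in the tumors labelled MMTV-Wnt1 (24 in Wnt_4635) and 7, 1, 6, 7 and 0 in the MMTV-Myc tumors, in the same orders. Their ranges overlapped, and no segment of that length was altered in Wnt_4677 or Myc_4An7. The SD of the segment means over autosomal probes, which needs no calling threshold, was 0.12 ± 0.08 in both models (SD, n = 5 each, exact permutation test, p = 1).

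**Figure D2:**
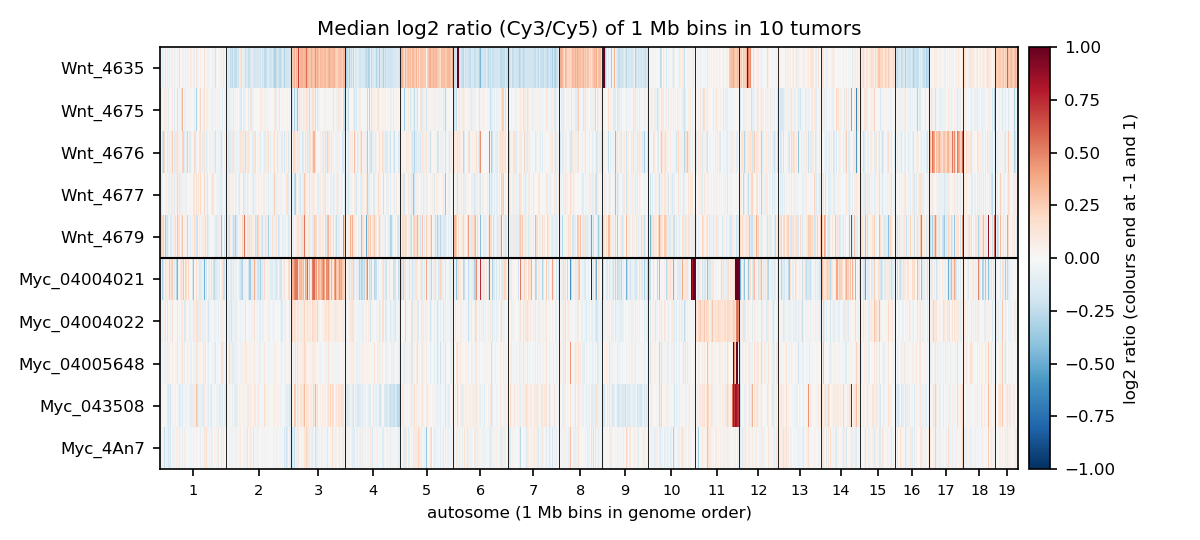
Median log2 ratio (Cy3 over Cy5) of each autosomal 1 Mb bin in genome order, 1 row per tumor, with colours that end at -1 and 1 and a line between MMTV-Wnt1 (top) and MMTV-Myc (bottom). Wnt_4635 shows shallow gains of whole chromosomes 3, 5, 8 and 19 and a loss of chromosome 7, Wnt_4676 a gain of chromosome 17, Myc_04004021 a gain of chromosome 3, and 4 of 5 MMTV-Myc tumors gains on distal chromosome 11.

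The transgenes were read first against the labels. Since the Wnt1 probe was in view when the direction of the dyes was chosen, its sign is no independent check, and only its differences between tumors are. The array has 1 probe for Wnt1 (chromosome 15, 98621829 to 98621888, mm8), which cannot separate the transgene from the endogenous gene. Its log2 ratio was 1.497 in Wnt_4675, 1.35 in Wnt_4677, 1.33 in Wnt_4676, 1.07 in Wnt_4679 and 0.07 in Wnt_4635. In MMTV-Myc tumors it was 0.80 in Myc_04004021 and between -0.29 and 0.16 in the other 4. The 4 high MMTV-Wnt1 values lay above all MMTV-Myc values, while Wnt_4635 lay among them. The difference of the means was 0.91 (1.06 ± 0.57 against 0.15 ± 0.40, SD, n = 5 each, exact permutation test, p = 0.0317), and it was 1.15 without Wnt_4635 (exact permutation test, p = 0.0159). Leaving out any 1 of the other 4 tumors labelled MMTV-Wnt1 gave 0.80 to 0.91 (exact permutation test, p = 0.0635). Leaving out Myc_04004022, Myc_04005648, Myc_043508 or Myc_4An7 gave 0.80 to 0.91 with p from 0.0556 to 0.0635 by the same exact test, so that the call rested on each of these 8 tumors. The median of the 110 probes within the flanks of Wnt1 was between -0.09 and 0.17 in all 10 tumors, and Wnt10b, the neighbouring Wnt ligand gene, was at -0.31 to 0.32. The high values thus did not extend to the flanking probes as a whole, though a median can hide single high probes. In the 35 tumors of the other 6 models the Wnt1 probe was between -0.45 and 0.65.

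Myc gave no such separation. Its 1 probe (chromosome 15, 61816154 to 61816213) was at 1.00 in Myc_04004021, 0.32 in Myc_04004022, 0.25 in Myc_04005648, -0.18 in Myc_043508 and -0.52 in Myc_4An7. Wnt_4635 was at 0.36 and the other 4 tumors labelled MMTV-Wnt1 were between -0.34 and -0.01, all inside that range. The difference was -0.24 (exact permutation test, p = 0.437), and the probe therefore neither bears out nor contradicts the labels of the MMTV-Myc tumors. The single probe SD of 0.443 in Myc_04004021 is the highest of the 10 arrays.

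A contrast over a long region lay on distal chromosome 11. Beyond 110 Mb the mean of 379 probes was 0.05 in Myc_4An7, 0.44 in Myc_04004022, 0.72 in Myc_04005648, 0.78 in Myc_043508 and 1.69 in Myc_04004021. In tumors labelled MMTV-Wnt1 it was 0.28 in Wnt_4635, 0.02 in Wnt_4675, -0.01 in Wnt_4677, -0.05 in Wnt_4676 and -0.15 in Wnt_4679. Myc_4An7 lay below Wnt_4635 and above the other 4 tumors labelled MMTV-Wnt1, and the other 4 MMTV-Myc tumors lay above all 5. The difference of MMTV-Wnt1 minus MMTV-Myc was -0.72 (0.02 ± 0.16 against 0.74 ± 0.61, SD, n = 5 each, exact permutation test, p = 0.0159). It was -0.78 without Wnt_4635, and -0.48 without Myc_04004021, the value nearest to 0 when any 1 tumor was left out, with p between 0.00794 and 0.0317. That contrast was known from earlier results of these data and from the study.

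**Figure D3:**
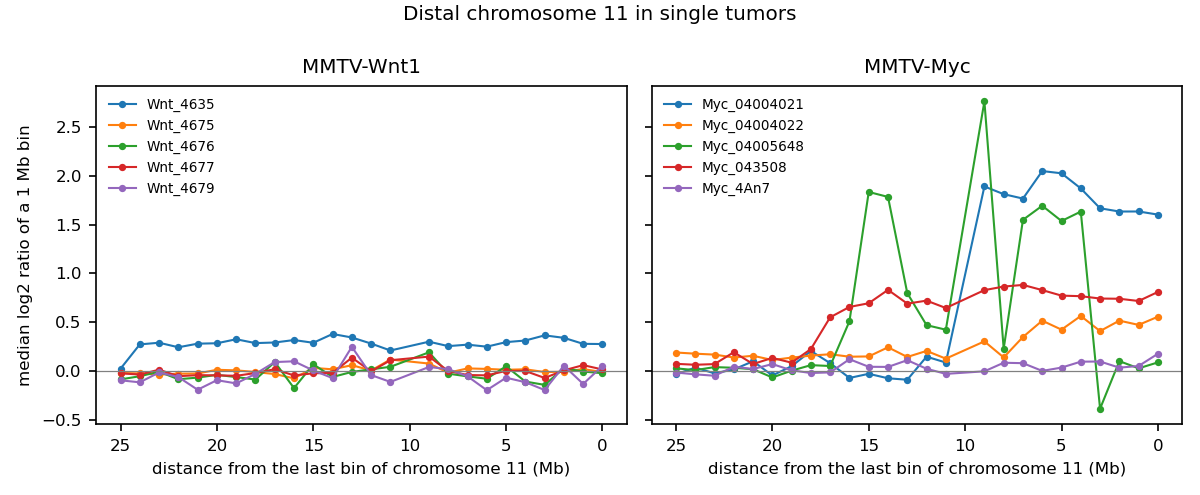
Median log2 ratio (Cy3 over Cy5) of 1 Mb bins against the distance from the last bin of chromosome 11, in Mb, 1 line per tumor, MMTV-Wnt1 on the left and MMTV-Myc on the right on the same scale. The line of Wnt_4635 stays flat near 0.28, whereas Myc_04005648 rises and falls between narrow amplicons and Myc_04004021 steps up once to a plateau.

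The 5 gained profiles of distal chromosome 11 differed in shape. In Wnt_4635 the gain was shallow and even, with a mean of 0.28 over 882 probes from 97970515 to 121652625. In Myc_04004022 it began at 114669885 and had a mean of 0.49 over 324 probes. In Myc_043508 it ran on from 103953100, after shorter gained stretches, and rose in steps from 0.50 to 0.88 before 0.74 in the last 5.89 Mb. Myc_04004021 stepped up at 112480026, to segment means of 1.76, 1.97 and 1.58. These 4 tumors had a gain that ran on to the last probes of the chromosome.

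Myc_04005648 had separate narrow amplicons instead. The highest was at 112480026 to 113287361, with a mean of 2.62 over 12 probes, where Sox9, a transcription factor of epithelial progenitors, is named. The segment from 105954911 to 107716963 was at 1.82, the one with Sumo2 (114984670 to 115382802) at 1.80, and the one with Birc5 and Ptdsr (116271461 to 117702635) at 1.57. Between and beyond them were lost segments, at 115980718 to 116177829 with a mean of -0.40 over 16 probes and at 117782351 to 118452761 with -0.46 over 27 probes. In the other 3 gained MMTV-Myc tumors these 2 stretches were at 0.45 to 2.09.

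Gained bins recurred at one place in MMTV-Myc. The 4 bins from 114000001 to 118000000 on chromosome 11 were gained in 4 of 5 MMTV-Myc tumors, and among the tumors labelled MMTV-Wnt1 in Wnt_4635 alone. The end of the chromosome from 118000001 was gained in 3 of 5, and 5 bins from 106000001 were gained in 2 of 5. In MMTV-Wnt1 no bin was gained in more than 3 of 5 tumors, and 3 bins reached that number, 1 on chromosome 4 and 2 on chromosome 6. In neither model was any bin lost in more than 1 tumor. The mean of chromosome 11 as a whole differed by -0.16 (exact permutation test, p = 0.0159, Benjamini-Hochberg adjusted p = 0.302 over the 19 autosomes), and the unadjusted p was 0.0556 with another centring. With adjustment, 0 of 19 autosomes passed (0%), which no single autosome could have done at the smallest p this design allows, and chromosome 11 was the only one with an unadjusted p under 0.05.

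The genes that the study took up on distal chromosome 11 lay in these segments, with single-gene values that varied around the segment means. Jmjd6, named Ptdsr on the array, encodes a lysyl hydroxylase of the JmjC family, and its 1 probe (116653510 to 116653569) was at -0.14 in Myc_4An7, 0.13 in Myc_04004022, 0.52 in Myc_043508, 1.52 in Myc_04005648 and 2.05 in Myc_04004021. The tumors labelled MMTV-Wnt1 were at 0.44 in Wnt_4635, 0.26 in Wnt_4675, 0.17 in Wnt_4677, 0.09 in Wnt_4676 and -0.75 in Wnt_4679. The groups overlapped, and the difference was -0.78 ± 0.38 (SE, limma adjusted p = 0.44). Birc5, which encodes the apoptosis inhibitor survivin, was between 0.46 and 2.49 in all MMTV-Myc tumors and at 0.61 in Wnt_4635, with the other 4 tumors labelled MMTV-Wnt1 between -0.58 and 0.01 (difference -1.39 ± 0.36, SE, adjusted p = 0.25). Ube2o, a ubiquitin-conjugating enzyme, Fbf1, a centriole protein, Tk1, the thymidine kinase of dividing cells, and Sumo2, a protein modifier, differed by -0.67 to -1.05 with adjusted p from 0.279 to 0.333. Gained segments of 4 MMTV-Myc tumors and of Wnt_4635 held all 6 genes, a lost segment of Wnt_4679 held them too (with Ube2o itself at 0.09 and Sumo2 at -0.07), and Fbf1 reached into a lost segment of Myc_04005648. The study took them from the interval gained in MMTV-Myc tumors of this series, by expression data and known functions, so that their direction is not independent evidence. None passed the test across all genes. With a spread estimated from all 45 tumors the adjusted p was 0.0039 for Birc5, 0.014 for Fbf1, 0.0277 for Tk1 and 0.0468 for Sumo2, while Ube2o (adjusted p = 0.161) and Ptdsr (adjusted p = 0.562) did not pass.

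Wnt_4679 had the opposite state at that place. A segment of chromosome 11 from 114881382 to 119209487 had a mean of -0.23 over 192 probes and was called lost, while the same probes were at 0.28 in Wnt_4635 and between -0.08 and 0.03 in the other 3 tumors labelled MMTV-Wnt1. The median of that segment was -0.14, and its array has the highest single-probe SD of the MMTV-Wnt1 arrays, 0.350.

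Across the genome, 0 of 2057 bins differed between the models with limma at an adjusted p under 0.05 (0%), and 128 had an unadjusted p under 0.05 (6.22%). Across 20194 autosomal gene entries (a gene name on 1 chromosome, called gene names here), 3 differed (0.0149%), 1 of them higher (0.00495%) and 2 lower (0.0099%) in MMTV-Wnt1, and 2427 had an unadjusted p under 0.05 (12%). When Wnt_4635 was left out, 8 gene names passed, and with the slide as a random block none did. None passed without Wnt_4676, Wnt_4677, Myc_04004022 or Myc_4An7, and 1 passed without Myc_043508. A limma fit with the spread of all 45 tumors called 5 bins (4 lower and 1 higher in MMTV-Wnt1) and 56 gene names.

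The strongest of the 3 genes was Prm1, which encodes protamine 1, the protein that packs DNA in sperm. Its 3 probes lie within 10709911 to 10710084 of chromosome 16 (mm8), and their mean was 1.19 in Wnt_4635, 1.18 in Wnt_4675, 1.105 in Wnt_4677, 1.02 in Wnt_4676 and 0.84 in Wnt_4679. In MMTV-Myc tumors it was 0.31 in Myc_04004021, 0.02 in Myc_04004022, -0.01 in Myc_4An7, -0.08 in Myc_04005648 and -0.24 in Myc_043508. The values of all 5 tumors labelled MMTV-Wnt1 lay above all MMTV-Myc values, as for 1.62% of all gene names, and the reverse order held for 1.66% (3.28% together). The difference was 1.07 ± 0.11 (SE, limma adjusted p = 0.0109). Each of the 3 probes separated the groups singly, with lowest MMTV-Wnt1 values of 1.23, 0.73 and 0.51 against highest MMTV-Myc values of 0.61, 0.40 and 0.08.

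In Wnt_4635 Prm1 was at 1.19 and the Wnt1 probe at 0.07. The rise at Prm1 did not extend to its flanks as a whole. The 49 flanking probes had medians between -0.19 and 0.02 in all 10 tumors, Tnp2, which encodes another nuclear protein of spermatids, was between -0.24 and 0.30, and Socs1, an inhibitor of cytokine signalling, between -0.52 and 0.13. Among the 35 tumors of the other models Prm1 ranged from -2.87 to 0.37 with a median of -0.28, and 0 of 35 reached the lowest MMTV-Wnt1 value. The direction of the difference was the same under the alternatives with Cy3 as tumor, but the call was lost with normexp background correction (0.63, adjusted p = 0.25), with the slide as a random block (1.05, adjusted p = 0.0783), with a trended and robust variance (adjusted p = 0.219) and with all 45 tumors in the fit (adjusted p = 0.533). It was also lost without Wnt_4676, Wnt_4677, Myc_04004022 or Myc_4An7 in turn (adjusted p from 0.0555 to 0.0711), and kept without Wnt_4635 (1.04, adjusted p = 0.0281).

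**Figure D4:**
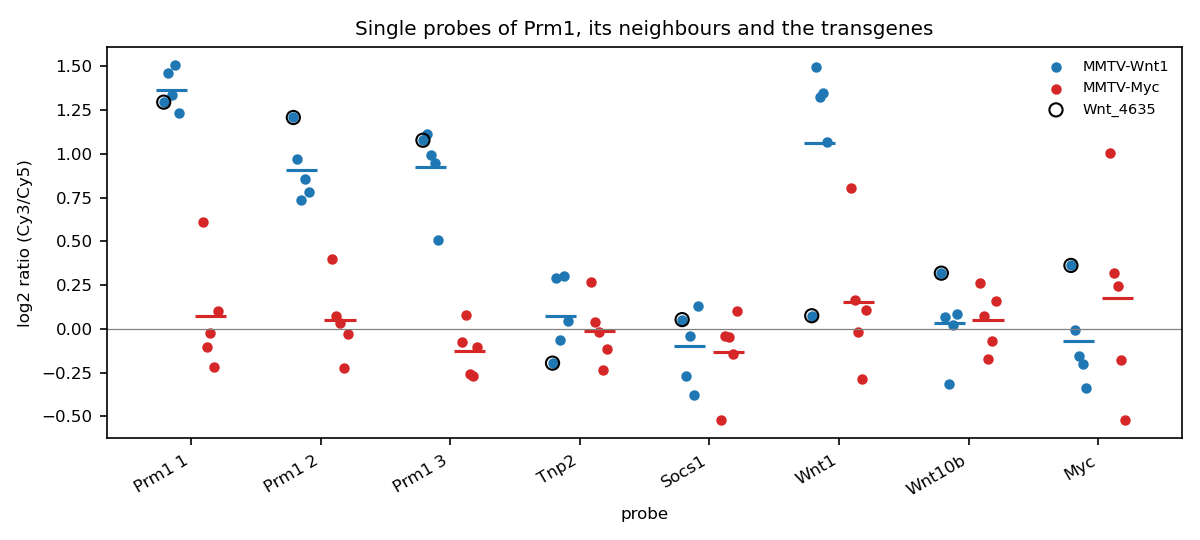
Log2 ratio (Cy3 over Cy5) of single probes in MMTV-Wnt1 (blue) and MMTV-Myc (red) tumors, 1 point per tumor, with a bar at the mean of the 5 tumors and a black ring around Wnt_4635. The 3 Prm1 probes are high in all 5 tumors labelled MMTV-Wnt1, the Wnt1 probe in 4 of them, and the neighbours Tnp2, Socs1 and Wnt10b in none.

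The other 2 names that passed were cDNA entries with 1 probe each. AK015353 (chromosome 9, 106500645 to 106500704) was between 0.65 and 0.73 in MMTV-Myc and between -1.03 and -0.13 in tumors labelled MMTV-Wnt1 (-0.18 in Wnt_4635), a difference of -1.13 ± 0.15 (SE, limma adjusted p = 0.0441). AK083348 (chromosome 6, 11860167 to 11860226) was between 0.16 and 0.52 in MMTV-Myc and at -0.15 in Wnt_4635 and between -0.79 and -0.51 in the other 4 tumors labelled MMTV-Wnt1, a difference of -0.93 ± 0.12 (SE, limma adjusted p = 0.0441). In the other 35 tumors the 2 probes had medians of 0.50 and 0.39 and ranges from -1.03 to 2.74 and from -0.81 to 1.59. Both calls were lost with another centring (limma adjusted p = 0.0591), with background-subtracted signals (adjusted p = 0.109) and with the slide as a random block (adjusted p = 0.252). With normexp background correction the difference was -0.07 for AK015353 (adjusted p = 0.831) and -0.50 for AK083348 (adjusted p = 0.131), and with all 45 tumors in the fit the adjusted p was 0.398 and 0.396. Restricted to probes well above background, AK083348 was at an adjusted p of 0.0536. Both were also lost without Wnt_4676, without Wnt_4677 and without any 1 of the 5 MMTV-Myc tumors, AK083348 in addition without Wnt_4675 or Wnt_4679, and both were kept without Wnt_4635 (adjusted p = 0.0382 and 0.0116).

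Wnt_4635 carried most of the altered genome of its group. It had shallow gains of all bins of chromosomes 3 (mean 0.32), 5 (0.29), 8 (0.28) and 19 (0.27) and a loss of all bins of chromosome 7 (-0.22). The long lost segments of this tumor, on chromosomes 2, 6, 7 and 16, had means of -0.23 to -0.20, close to the call. Centring on the density peak raised all values of this array by 0.065, after which these segments fall short of the call at -0.2. Chromosomes 2 (-0.17), 4 (-0.16), 6 (-0.16) and 16 (-0.20) were also below 0, mostly under the calling threshold, and chromosome 15 was at 0.15. In the other 4 tumors of that label the means of these chromosomes were between -0.06 and 0.06. Myc_04004021 also had all bins of chromosome 3 gained, at 0.35.

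On this background Wnt_4635 had narrow amplicons in which genes of growth and survival are named. On chromosome 6, 16724617 to 18377549 had a mean of 1.90 over 33 probes. Met, the receptor tyrosine kinase for hepatocyte growth factor, was at 1.92 there, and Wnt2, a secreted Wnt ligand, at 1.78. Cav1 and Cav2, which encode the coat proteins of caveolae, lie in the same segment. The same probes were between -0.03 and 0.14 in the other 9 tumors of both models.

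A second group of amplicons lay at the start of chromosome 9. The core from 7158891 to 7565658 had a mean of 3.74 over 23 probes and holds a cluster of matrix metalloproteinase genes (Mmp1a, Mmp1b, Mmp3, Mmp8, Mmp10, Mmp12 and Mmp13), whose products cut extracellular matrix. Next to it, 7654699 to 8121056 was at 2.58 over 18 probes, with Birc3, an inhibitor of apoptosis and of cell death signalling, at 2.55 and Yap1, the transcriptional coactivator of the Hippo pathway, at 2.49. The level fell to 0.42 beyond 8773720, where Pgr, the progesterone receptor gene, is named. In the other 9 tumors the core was between -0.12 and 0.12 and the segment with Yap1 between -0.18 and 0.12.

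Further amplicons of this tumor were on chromosomes 3 and 12. The one on chromosome 3 (26524049 to 27270695) was at 3.14 over 7 probes and names Spata16, a gene of sperm formation. The one on chromosome 12 (31792384 to 32761872) was at 0.99 over 25 probes and names Hbp1, a transcriptional repressor, and Pik3cg, a catalytic subunit of phosphoinositide 3-kinase, and it was followed by 8.75 Mb at 0.51. Over the 35 tumors of the other models, the probes of the Met segment reached 0.2 in 17 and exceeded 1 in 5, and those of the metalloproteinase core reached 0.2 in 2 and never exceeded 0.42.

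The other MMTV-Wnt1 tumors had few long segments. In Wnt_4676 all bins of chromosome 17 were gained, in 3 segments with means of 0.34, 0.25 and 0.34, and the chromosome mean was 0.29 against -0.03 to 0.04 in the other 4. Wnt_4679 had a shallow gain of chromosome 6 from 5554873 to 21532639 with a mean of 0.21 over 124 probes, which contains the amplicon of Wnt_4635, but Met itself was at -0.13 and Wnt2 at -0.29. Chromosome 8 from 120331619 to 125783291 was at -0.24 in the same tumor. Wnt_4675 had 1 altered segment of at least 20 probes, on chromosome 4 with a mean of 0.26 but a median of 0.03, and Wnt_4677 had none.

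Short segments with high ratios recurred in tumors labelled MMTV-Wnt1. On chromosome 4, 111570716 to 111955475 (9 probes) was at 4.09 in Wnt_4635, 3.58 in Wnt_4675, 4.49 in Wnt_4679, -0.01 in Wnt_4677 and -0.36 in Wnt_4676. Its probes carry clone names that RefSeq lists as synonyms of Skint4, Skint3 and Skint9, members of a family of membrane proteins of skin and thymus. The 5 MMTV-Myc tumors were between -0.12 and 0.20, and the 35 tumors of other models between -0.57 and 0.81, so that 3 tumors stood apart from all others and the 3 shared no slide. In Wnt_4676 a part of the stretch (111756513 to 111927421) was at -0.93.

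On chromosome 6 another pattern was seen. Probes from 130162373 to 131194012, named Klra22 and Klra2, of the Ly49 receptor family of natural killer cells, were at 1.201 in Wnt_4675, 1.18 in Wnt_4676 and 1.24 in Wnt_4677, against 0.21 in Wnt_4679 and -0.31 in Wnt_4635. MMTV-Myc tumors were between -0.27 and 0.12. Klra22 carried these means, since Klra2 itself was at 0.24, 0.16 and 0.29 in the 3 high tumors and at 0.20 in Wnt_4679. The same 3 tumors were at 0.30 to 0.41 at 141619982 to 142100318, with the transporter genes Slco1a1, Slco1a4, Slco1a6 and Slco1b2, where the other 2 tumors labelled MMTV-Wnt1 were at -0.22 and 0.05 and the MMTV-Myc tumors between -0.23 and 0.22. The median of that segment in Wnt_4675 was -0.02. The 3 tumors were hybridized on 1 slide, and the part of the slide in this was not tested. In other models the Klra probes reached 2.39 and the Slco probes 2.34, so that neither level was particular to MMTV-Wnt1.

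**Figure D5:**
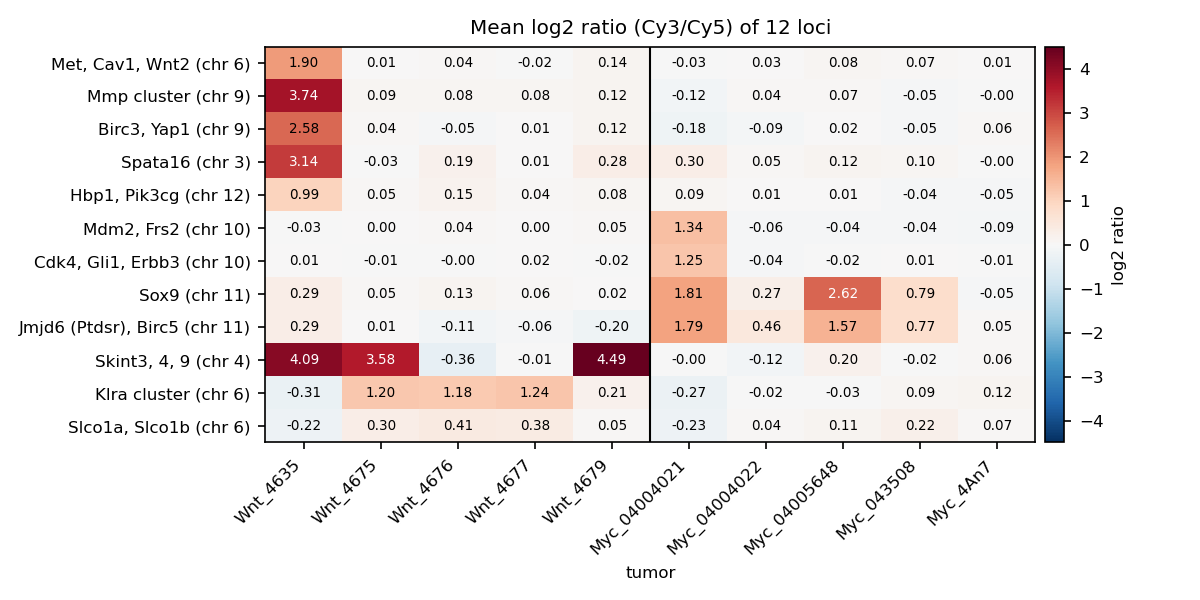
Mean log2 ratio (Cy3 over Cy5) of 12 loci in the 10 tumors, written in each cell and coloured from blue below 0 to red above 0, with MMTV-Wnt1 left and MMTV-Myc right of the line. The Met locus on chromosome 6 and the loci on chromosomes 3, 9 and 12 are high in Wnt_4635 alone, those on chromosome 10 in Myc_04004021 alone, and Skint and Klra in 3 tumors labelled MMTV-Wnt1 each.

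Outside chromosome 11 the alterations of MMTV-Myc tumors came mainly from Myc_04004021. Beside chromosome 3, it had 3 high segments at the end of chromosome 10. The segment at 106488974 to 108388412 was at 1.13 over 24 probes, and the one at 116352687 to 117575704 was at 1.34 over 39 probes, with Mdm2, the ubiquitin ligase that degrades p53, at 1.02. The longest, 119487187 to 129759311, was at 1.25 over 280 probes. It holds Cdk4, the cyclin D-dependent kinase, at 1.58, Erbb3, a partner receptor of Erbb2, at 1.03, and Wif1, a secreted inhibitor of Wnt ligands, at 1.14. In the other 9 tumors the segment means were between -0.09 and 0.05 at Mdm2 and between -0.04 and 0.02 at Cdk4.

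Myc_043508 had a lost end of chromosome 4, at -0.30 from 149963109 to 154338973 and at -0.22 from 154393249 to 155029031, where Dvl1, a cytoplasmic transducer of Wnt signals, is named. On chromosome 11 it also had a shallow gain from 89109265 to 94149210, at 0.25. Myc_04004022 had no altered autosomal segment of at least 10 probes outside chromosome 11. Myc_4An7 had 3 short altered autosomal segments in all, of which the longest, on chromosome 14 (50733596 to 51006922), was at 0.41 over 12 probes.

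Genes of the Wnt pathway were read as a list, since one model is driven by a member of it. Of 59 measured genes, 0 passed the test between the models, where 0.0149% of all gene names did, and the median difference was -0.03, against 0.00 over all gene names. Gained segments held 19 of the 59 in at least 1 tumor labelled MMTV-Wnt1, and 18 of them in Wnt_4635, while gained segments of the 5 tumors held 30.2% of all gene names. Without Wnt_4635 the count was 3 of 59, against 5.97% of all gene names. Lost segments held 2 of 59, both in Wnt_4635, against 10.4% of all gene names with it and 1.27% without. The list thus stood near the background in its gains. The ligands Wnt2, Wnt2b, Wnt3, Wnt9b and Wnt8b lay in gained segments of Wnt_4635, at 1.78, 0.49, 0.50, 0.28 and 0.29. Wnt8b was at 2.28 in Wnt_4679, where its segment of 5 probes had a median of 0.31, between -0.17 and 0.03 in the other 3 tumors labelled MMTV-Wnt1 and between -0.36 and 0.05 in the MMTV-Myc tumors. The co-receptor gene Lrp5 was at 0.60 in Wnt_4635 and between 0.14 and 0.40 in the other 4 tumors of that label, against 0.04 to 0.13 in MMTV-Myc, a difference of 0.23 ± 0.10 (SE, limma adjusted p = 0.407).

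In MMTV-Myc tumors, gained segments held 8 of the 59 Wnt genes, against 8.24% of all gene names, and a lost segment held 1, against 0.852%. The 7 of the gained genes that lie on chromosomes 3 and 10 were gained in Myc_04004021 alone, among them Wif1 and Lef1, a transcription factor of the pathway whose own probes were at 0.02 there. Axin2, a negative regulator that the pathway itself induces, was gained in Myc_04005648 at 0.74 and in Myc_043508 at 0.54, and at 0.33 in Wnt_4635. Its difference of -0.25 ± 0.15 (SE) did not pass (limma adjusted p = 0.522).

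The genes of the Myc network were read in the same way, against the same shares of all gene names. Of 28 measured entries, 12 lay in a gained segment in a tumor labelled MMTV-Wnt1, 11 of them in Wnt_4635, and 1 without it. Lost segments held 3, of which 2 in Wnt_4635 and 1 without it. The last was an entry named Odc1 on chromosome 8, lost in Wnt_4679 and also counted among the 11 gained in Wnt_4635. Its 52 probes span 125002589 to 126043565. Odc1 has another entry, of 1 probe on chromosome 12, so that the entry on chromosome 8 may not measure that gene. In MMTV-Myc tumors 1 entry was gained and 0 were lost. The gained one was Fbxw7, whose product marks Myc for degradation and which was at -0.24 in Myc_04004021, below its segment mean of 0.35. Mycn, a relative of Myc, was at 0.05 in Wnt_4635, where its segment was at 0.26. None of the 28 passed the test, and the median difference was -0.05.

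No other list fixed for this comparison held a gene that passed. Their gained counts in MMTV-Wnt1 rested mostly on Wnt_4635, except in the list of strain differences, where 0 genes were gained in Wnt_4635. All counts are to be read against the shares of all gene names, which were 30.2% gained and 10.4% lost in a tumor labelled MMTV-Wnt1, 5.97% and 1.27% without Wnt_4635, and 8.24% and 0.852% in an MMTV-Myc tumor. Among 26 genes of p53, Rb and the cell cycle, 8 were gained in a tumor labelled MMTV-Wnt1, 2 without Wnt_4635, and 2 in an MMTV-Myc tumor, the last being Mdm2 and Cdk4. Lost were 2, the cyclin genes Ccnd1 and Ccne1, both in Wnt_4635, and 0 in an MMTV-Myc tumor. Among 21 mammary oncogenes and receptors the counts of gained genes were 10, 2 and 2, and 3 were lost in Wnt_4635 (Akt2, Cttn and Igf1r), 0 in the other 4 tumors of that label and 1 in an MMTV-Myc tumor (Erbb3 in Myc_04005648). The lost segment with Erbb3 had 5 probes, with a mean of -0.55 but a median of -0.196, short of the call. Ccnd1, the gene of cyclin D1, lay in the lost chromosome 7 of Wnt_4635 at -0.20. Of 24 genes of Ras and its regulators, 5 were gained and 7 lost in a tumor labelled MMTV-Wnt1, and 1 gained and 2 lost without Wnt_4635. In an MMTV-Myc tumor 3 of these 24 were gained and 0 lost. Of 19 genes of the FGF family 5 were gained and 4 lost in Wnt_4635, and none in the other 4 tumors of that label. Fgf3, a ligand gene known as an insertion site of MMTV, was at -0.37 in Wnt_4635, and Fgf2, another ligand gene, also lay in a gained segment of Myc_04004021. Grb2, an adaptor that links receptors to Ras, lies at 115481126 to 115496766 of chromosome 11 and shared the gain of 4 MMTV-Myc tumors, with values from 0.42 to 1.498. Of 6 genes known for copy number differences between strains, 5 were gained in an MMTV-Wnt1 tumor and 0 in an MMTV-Myc tumor, and 0 passed the test. Of the 5, Btbd9, Glo1 and Glp1r lie on chromosome 17 and were gained with the whole of it in Wnt_4676, and the other 2 were Klra22 and Klra2. Of the list of lymphocyte receptor loci only 1 name was matched, Ighmbp2, which is no receptor gene, so that this list measured nothing.

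The similarity of whole profiles is given as a description over the 2057 bins, which share arrays and base composition. Pearson's r averaged 0.30 over the 10 pairs of MMTV-Myc tumors, 0.15 over the 10 pairs of MMTV-Wnt1 tumors and 0.10 over the 25 pairs between them. The profile most like Wnt_4679 over all 45 arrays was that of an MMTV-PyMT tumor on the same slide (r = 0.69), and the second was the other MMTV-PyMT array of that slide (r = 0.51). The nearest profiles of Wnt_4675, Wnt_4676 and Wnt_4677 were each other's, on their common slide, with r from 0.40 to 0.41. Wnt_4635 had no tumor of its label among its 3 nearest, the first of which was a BRCA1-/-;p53+/- tumor at r = 0.28.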

How the data were processed

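Per the labels, genomic DNA of tumors and spleen was labelled with Cy3 and Cy5 and hybridized to Agilent 2-colour arrays with mm8 positions. The authors deposited Feature Extraction output (9.5.1.1 in the file headers, 10.7 in the methods) for each array, which holds a processed intensity per channel, already background-subtracted and dye-normalized. Its deposited ratio is a log10 ratio of Cy5 over Cy3. The deposited interval table gives the mean log2 ratio of each interval that the authors called, and was used only for the direction and as an alternative. Its p-values, and the tables of single models, were not used.

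The log10 ratios were turned to log2 of Cy3 over Cy5 and centred on the autosomal median. Control and outlier spots were left out and spots of a probe averaged (42235 probes, 40666 of them autosomal). An own implementation of circular binary segmentation (numba 0.67.0 and numpy 2.4.6 under Python 3.11.15) split where its statistic exceeded 6. Bins of 1 Mb needed 3 probes (median 16). For single values the test was an exact two-sided permutation of the 10 tumors. Bins and gene names were compared with limma 3.58.1 (lmFit, eBayes) in R 4.3.3 on these 10 arrays, with Benjamini-Hochberg adjustment over all of them. The segmentation and the gene fit were tested on simulated data.

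The members, gene lists and tests were chosen with earlier results of these data known. Named genes were the transgenes, list members in altered segments, the distal chromosome 11 genes of the study (Tnrc6c was not among the names matched) and the genes past the threshold. The loci outside the lists and the neighbours of Prm1 were chosen after their values were seen. Gene names were fitted per chromosome (20194 entries of 20093 different names), of which 14464 names matched a RefSeq symbol or synonym in a table of GRCm38.p6, which served for names alone. Replicate numbers only name the tumors. The number of arrays limits the precision. The alternatives changed the direction, centring, background correction, dye normalization, probe and spot filters, segmentation, thresholds, bins, variance model, blocks and samples, and left out each tumor in turn.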

Additional observations from a re-analysis of the deposited data

Results flagged for a closer look

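Of 76 sets of 5 values, 1 tumor stood far from the other 4 of its model in 23, where chance gives about 1 in 20. The values of a tumor are not independent of each other, and most of these came from Wnt_4635 and Myc_04004021.

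Wnt_4635 stood apart in its altered share (30.9%), gained share (23.4%), lost share (7.49%) and altered share outside distal chromosome 11 (30.2%). It did so in the mean log2 ratio of chromosomes 2 (-0.17), 3 (0.32), 5 (0.29), 6 (-0.16), 7 (-0.22), 8 (0.28), 15 (0.15), 16 (-0.20) and 19 (0.27), and at Ube2o (0.44).

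Myc_04004021 stood apart in its altered and gained shares (7.44% each), its altered share outside distal chromosome 11 (7.02%), chromosome 3 (0.35), chromosome 10 (0.17) and chromosome X (0.58, where the other 4 MMTV-Myc tumors were at 0.94 to 0.98). Myc_4An7 stood apart in the mean of chromosome 11 (0.0208), Myc_043508 in its lost share (0.292%) and Wnt_4676 in chromosome 17 (0.29).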

How the results depend on the processing

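With the dyes as labelled the differences turned to 0.72 for distal chromosome 11, -0.91 for Wnt1, 0.24 for Myc, -1.07 for Prm1, 0.93 for AK083348, 1.13 for AK015353, 1.39 for Birc5, 0.89 for Sumo2, 0.78 for Ptdsr, 1.05 for Fbf1, 0.67 for Ube2o and 0.91 for Tk1, and the gained and lost shares changed places (differences of 1.58 and 3.88 points). Normexp turned the altered share to -1.69 points, the gained share to -1.80, the altered share outside distal chromosome 11 to -1.25, the segments to -0.8 and the segment SD to -0.0825. A call at 0.3 turned the first 3 to -0.574, -0.622 and -0.138. The lost share was -0.00972 with the deposited intervals. The segment SD, whose difference was 0.000986, also turned with background-subtracted signals (-0.0026), probes well above background (-0.0306), outlier spots kept (-3.4e-05), a split at 8 (-0.00583), 10 probes a segment (-0.00608), the highest noise SD for all arrays (-0.00578), the deposited intervals (-0.0102) and without spots of ratio 0 (-8.4e-05, chosen after seeing the data). Gene names passing were 1 with peak centring, probes well above background or at least 2 probes a gene, 0 with the slide as a random block and 56 with all 45 arrays, which also called 5 bins. None of these differences of shares, segments or segment SD passed its test under any setting, and the causes were not tested.

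Leaving out 1 tumor in turn gave -0.423 to 7.28 points for the altered share, -0.537 to 5.30 for the gained share, 0.114 to 1.99 for the lost share, -0.0246 to 7.502 outside distal chromosome 11, 13.65 to 27.8 segments, -0.0303 to 0.0288 for the segment SD, -0.89 to -0.48 for distal chromosome 11, 0.80 to 1.15 for Wnt1, -0.41 to -0.03 for Myc, 0 to 8 gene names (8 without Wnt_4635), 0 bins and 0 autosomes (a single autosome could not have passed). Prm1 was at 1.01 to 1.15 (adjusted p from 0.00183 to 0.0711). Fits of all 45 arrays with slide or scan day as a block were not made, because terms of the design could not be estimated. No slide or day held arrays of both MMTV-Wnt1 and MMTV-Myc. No paired analysis was possible because the tumors carry no shared replicate numbers in the labels.

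The single-probe SD limits single-probe genes such as Wnt1, Myc and Ptdsr, and short or shallow segments. With 5 tumors a group the exact test cannot go below p = 0.00794.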
